A study of Homo sapiens with 12 samples.

Results

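HR, the hairless transcriptional corepressor, was examined together with the nuclear receptors it is known to bind or whose partners it shares, THRA, THRB, VDR and RXRA, and with CYP24A1, a classical target gene of the vitamin D receptor. These 6 genes, of 19251 in the deposited tables, were found by gene symbol. HR was chosen by its lower level in ascites-exposed than in untreated CAOV3 cells, and the other genes were chosen for their known relation to HR with earlier results of these data in view. The values of these 6 genes in the CAOV3 comparison are therefore descriptions with no test, as is the HR difference between the untreated lines, which rests on the same CAOV3 control libraries. THRB and CYP24A1 entered the fit only through CAOV3, where they are high, so their difference between the lines is not tested either. HR, THRA, VDR and RXRA were tested in TOV21G, and THRA, VDR and RXRA between the untreated lines. Because the genes other than HR were chosen with earlier results in view, their p-values are no independent support. The tests between the lines also use the CAOV3 control libraries by which HR was chosen.

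The series asked which transcripts change in ovarian cancer cell lines kept in ovarian cancer ascites, an abdominal fluid of patients with the disease. CAOV3, labelled as a high grade serous epithelial line, and TOV21G, labelled as a clear cell epithelial line, are both of WT genotype per the labels. Each was seeded at 250000 cells in 1.5 mL of DMEM with 10% fetal bovine serum and antibiotics, in which all 4 groups were kept. Ascites-exposed cells received 150 µL of ascites (10%) for 16 h, while the control libraries are labelled as having no treatment and the labels name no vehicle. The labels do not say which patients or pools the ascites came from, and give no hormone levels of the fluid or serum. Each group held 3 libraries, which the labels do not tie to separate cultures, so p-values measure the spread between these libraries.

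The libraries held 26697609 to 34491304 reads, with 18153 to 18426 genes at 1 read or more. All 5 epithelial markers had values in both lines, although CDH1 stood at 13.3 ± 6.1 normalised counts in TOV21G controls (SD, n = 3). The 3 serous and Müllerian markers, PAX8, WT1 and MUC16, summed to only 33.8 to 39.9 over the CAOV3 libraries, against the label of that line. Some marker sums moved with ascites. In CAOV3 the epithelial sum was 131720 to 132810 in controls and 153330 to 162630 in ascites, carried by KRT8 and KRT18, while CDH1 was lower in ascites, at 272 ± 8.4 against 425 ± 33.1, and KRT19 was 16198 ± 658 against 16839 ± 318. The sum of 4 fibroblast markers was 5138 to 5966 in CAOV3 controls and 4887 to 5038 in ascites, and in TOV21G 12543 to 13079 and 11260 to 11688. In CAOV3 LUM carried this, at 4196 ± 366 and 3647 ± 100, while PDGFRA went from 1005.5 ± 62.2 to 1062.5 ± 34.5. In TOV21G COL1A2 carried it, at 10854 ± 308 and 9661 ± 186, and LUM and PDGFRA were near the floor there. In TOV21G the serous and Müllerian sum was 7041 to 7535 in controls and 8692 to 9588 in ascites. PAX8 alone carried this, at 7032 ± 259 and 8852 ± 448. WT1 stood at 228 ± 7.8 and 233 ± 8.0, and MUC16 was near the floor at 6.5 ± 3.1 and 4.7 ± 4.6. Of 5 leukocyte markers only CD14 was analysed here, at 8.39 to 89.3 in the 12 libraries. The part of these shifts in the results was not tested, and in bulk RNA fewer cells of a type and less RNA per cell cannot be told apart.

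Thyroid hormone and vitamin D act on genes through nuclear receptors that bind DNA mostly as heterodimers with a retinoid X receptor. Without hormone, thyroid hormone receptors recruit corepressors and histone deacetylases to their target genes, and with hormone these are exchanged for coactivators. HR binds thyroid hormone receptors and the vitamin D receptor, carries a JmjC domain, and is best known from skin and hair follicle, where its loss causes congenital hair loss, and from the brain, where it is itself a thyroid hormone responsive gene. The vitamin D receptor is an established inducer of CYP24A1, the enzyme that breaks down active vitamin D.

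Both thyroid hormone receptor genes were lower in untreated TOV21G than in untreated CAOV3 cells, THRB to nearly 0, and the DNA just before a start site of each in RefSeq is shown for that reason. RefSeq promoter entries (GRCh38.p14) matched 3 of the 6 genes, and the stretches below are the bases of the THRA and THRB entries before the start that no GENCODE release 29 exon covers. They are read 5′ to 3′ on the strand of the gene, and capitals mark the GC box GGGCGG, on either strand and with overlaps counted, and the TATA motif TATAAA. The THRA stretch lies at chr17:40062715-40062809 on the plus strand, inside the annotated gene, whose first start is at 40058290, and before one of its later starts. The THRB upstream entry lies at chr3:24495757-24495956 and the downstream entry at chr3:24495006-24495100, both on the minus strand.
THRA: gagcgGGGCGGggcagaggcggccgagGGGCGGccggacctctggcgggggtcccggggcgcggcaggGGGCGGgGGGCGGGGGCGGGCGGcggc
THRB upstream entry: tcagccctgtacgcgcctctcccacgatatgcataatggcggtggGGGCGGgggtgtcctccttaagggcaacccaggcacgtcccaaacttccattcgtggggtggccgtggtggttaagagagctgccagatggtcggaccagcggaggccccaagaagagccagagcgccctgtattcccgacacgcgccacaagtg
THRB downstream entry: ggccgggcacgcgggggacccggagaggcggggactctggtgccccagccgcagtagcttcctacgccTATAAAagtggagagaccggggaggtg
The THRA stretch of 95 bases held 6 GC boxes, a motif present in 16.4% of the 35116 promoters in windows of that place and length, and 15 CG pairs, against a median of 3. The THRB upstream stretch of 200 bases held 1 GC box, as 35.3% of promoters do, and 14 CG pairs against a median of 8. The THRB downstream stretch held no GC box but 1 TATAAA, which 4.35% of promoters hold, and 8 CG pairs against a median of 3. Half-sites of the kind that thyroid hormone and vitamin D receptors bind (the letters AGGTCA or the letters GGGTCA, and likewise AGTTCA or else GGTTCA, searched on either strand) were in none of the 3 stretches, while 14.6% of windows of 95 bases and 28.3% of windows of 200 bases hold one. These matches describe the letters of the windows only.

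Per length of exon, THRA, RXRA and VDR were more abundant than HR in both lines. Levels are normalised counts per kb of annotated exon (mean ± SD, n = 3), which do not account for the isoform in use. In CAOV3 controls the order was THRA at 205 ± 3.8, RXRA at 185 ± 4.7, THRB at 136 ± 4.1, VDR at 117 ± 6.3, HR at 106 ± 3.4 and CYP24A1 at 4.42 ± 1.25. In CAOV3 ascites HR stood at 58.0 ± 5.1 and CYP24A1 at 27.6 ± 0.76, so these lay closer together than in the controls. Neighbours in the ascites order that did not differ beyond their spread were THRB at 122 ± 5.8 and VDR at 121 ± 5.1, and the libraries of THRA at 181 ± 5.3 and RXRA at 171 ± 6.5 also overlapped. In TOV21G controls RXRA led at 164 ± 11, followed by VDR at 129 ± 6.1, THRA at 83.4 ± 4.1 and HR at 10.0 ± 0.98, with THRB at 0.059 ± 0.052 and CYP24A1 at 0. The TOV21G ascites libraries kept this order, with RXRA at 151 ± 6.4, VDR at 113 ± 6.4, THRA at 69.9 ± 5.5 and HR at 7.39 ± 0.84. THRA headed the order in CAOV3 and came after RXRA and VDR in TOV21G.

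**Figure D1:**
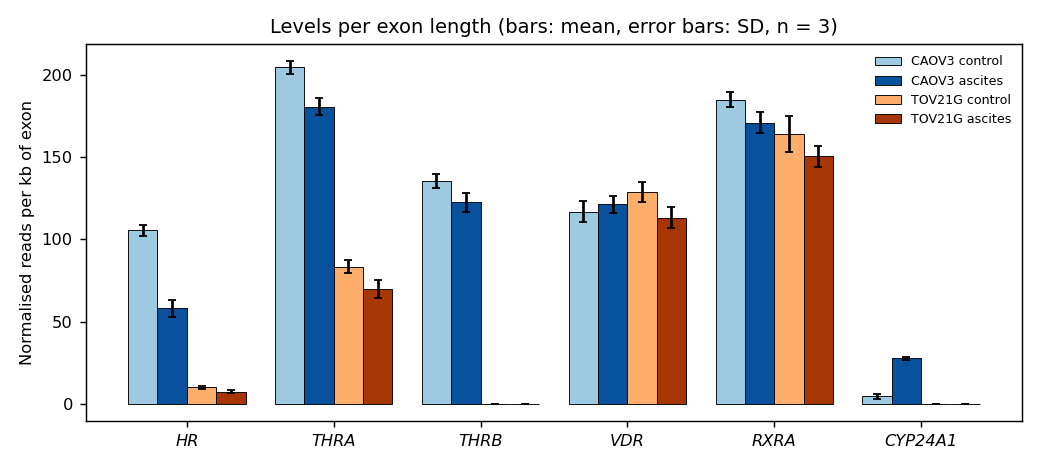
Levels of the 6 genes in normalised reads per kb of annotated exon (vertical axis, linear, from 0), as the mean of 3 libraries in each of the 4 groups with error bars of 1 SD. RXRA and VDR have like levels in all 4 groups, whereas HR, THRB and CYP24A1 have low bars or none in TOV21G.

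In all, 5 of the 6 genes had ascites libraries entirely above or below the controls in CAOV3, where 24.2% of all 17616 tested genes do so. At an adjusted p under 0.05 (limma), 1.73% of tested genes were called in CAOV3. HR and CYP24A1 were among them, but this contrast chose the members and nothing is read from these counts. In TOV21G HR, THRA and VDR did not overlap between groups and RXRA did, against a share of 11.1% of tested genes that did not overlap. None of HR, THRA, VDR and RXRA was called in TOV21G, where the share called was 0.409% of tested genes. Neither edgeR nor DESeq2 on the recovered reads called any of them there. THRB and CYP24A1, with at most 1 read per TOV21G library, could not have been called and are left out of this count. At an unadjusted p under 0.05 (limma), 1615 of the 17616 tested genes stood out in TOV21G, and HR, THRA, VDR and RXRA were each under that limit. This limit takes no account of the number of genes tested or of how the members were chosen, so no response is read from it.

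**Figure D2:**
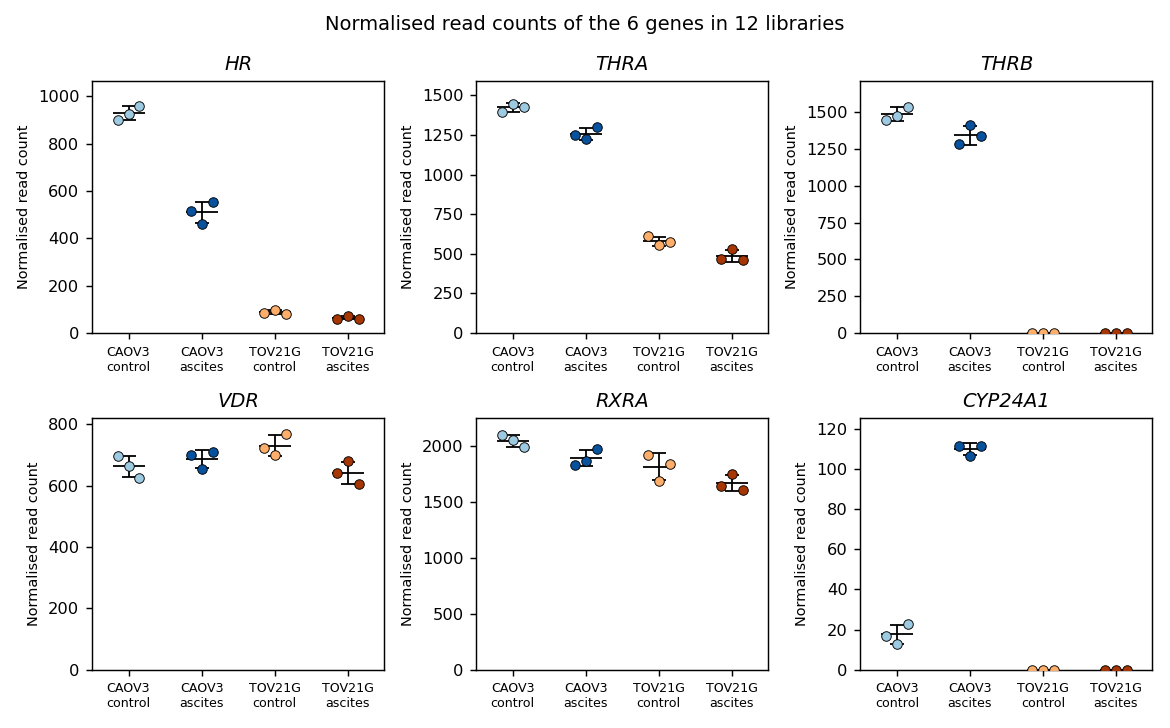
Normalised read counts (vertical axes, linear, from 0) of the 6 genes in the 12 libraries, with 1 point per library and the mean ± SD of 3 libraries as lines. HR is at 462 to 551 in CAOV3 ascites against 900.0 to 959 in the controls, CYP24A1 is higher in ascites in CAOV3, and both THRB and CYP24A1 are at or near 0 in TOV21G.

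HR (ENSG00000168453, chromosome 8, 22114415 to 22133384 on the minus strand in GENCODE release 29, GRCh38) had 900.0, 924 and 959 normalised counts in the CAOV3 control libraries. In the CAOV3 ascites libraries it had 515, 462 and 551. Each ascites library was thus well below each control, and the ascites mean was 54.9% of the control mean, a log2 difference of -0.87 (SE 0.10). In TOV21G the HR counts were 85.6, 97.5 and 80.8 in controls and 60.5, 73.4 and 60.9 in ascites. These groups did not overlap either, with ascites replicate 2 nearest to the controls, and the ascites mean was 73.8% of the control mean. The log2 difference in TOV21G was -0.43 (SE 0.10, 95% interval -0.66 to -0.21), which did not pass the adjustment over all genes (limma, unadjusted p 0.0011, adjusted p 0.133). It passed in 1 of 21 alternatives, without TOV21G ascites replicate 2, at -0.52 (adjusted p 0.0385), and the highest adjusted p was 0.698, with TOV21G fitted alone. The difference between the responses of HR, TOV21G minus CAOV3, was 0.43 (SE 0.15), given with no test. Untreated TOV21G cells held 9.48% of the HR level of untreated CAOV3 cells, 88.0 ± 8.6 against 928 ± 29.7 (SD, n = 3), and no library of one line came near those of the other.

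No other gene of GENCODE release 29 overlaps HR on either strand. Of the 3 nearest measured genes on each side, DMTN, FHIP2B and NUDT18 toward lower coordinates and REEP4, LGI3 and BMP1 toward higher ones, none was called in either line. NUDT18, the closest on its side at 4996 bases, had log2 differences of 0.02 in CAOV3 and -0.005 in TOV21G. REEP4, at 4636 bases on the other side, had 0.03 and -0.03. DMTN, a gene of an actin-binding protein 31888 bases away, was lower in ascites by the point estimate in both lines, at -0.20 (SE 0.05, adjusted p 0.114) and -0.23 (SE 0.05, adjusted p 0.131, limma). LGI3 was too low to be tested, with a mean of 7.17 ± 3.4 in CAOV3 controls.

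THRA (ENSG00000126351, chromosome 17, 40058290 to 40093867, plus strand) encodes thyroid hormone receptor alpha. In CAOV3 its counts were 1395, 1447 and 1429 in controls and 1250.4, 1225 and 1297 in ascites. The ascites libraries all lay below the controls by a small margin, a log2 difference of -0.18 (SE 0.06). In TOV21G the THRA counts were 611, 556 and 573 in controls and 465, 531 and 464 in ascites, so the groups were again separate, with ascites replicate 2 the highest of its group. The log2 difference of -0.26 (SE 0.06, 95% interval -0.38 to -0.13) did not pass the adjustment (limma, adjusted p 0.118). It passed in 1 of 21 alternatives, without TOV21G ascites replicate 2, at -0.32 (adjusted p 0.0173), and the highest adjusted p was 0.559, with TOV21G fitted alone. Between the untreated lines THRA was lower in TOV21G, at 40.8% of the CAOV3 mean (log2 difference -1.29, SE 0.06, adjusted p 9.63e-11). THRA overlaps NR1D1 over 1081 bases and MED24 over 2926 bases, both on the other strand. Whether the counting used strand is not given in the sources used here, so reads in these overlaps could not be assigned with certainty. NR1D1, which encodes the circadian repressor REV-ERB alpha, differed by a log2 of 0.04 in CAOV3 and -0.10 in TOV21G, and MED24 by 0.001 and -0.08, none of them called.

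THRB (ENSG00000151090, chromosome 3, 24117153 to 24495756, minus strand), the gene of thyroid hormone receptor beta, was read almost only in CAOV3. It had 1449, 1473 and 1537 normalised counts in CAOV3 controls and 1282, 1409 and 1336 in ascites. The ascites libraries were below the controls, with a mean of 90.3% of the control mean. In TOV21G THRB had 0, 1 and 1 reads in the control libraries and 0, 1 and 0 in ascites, so no fold is given for that line. The 4199 reads of the CAOV3 controls against 2 in the TOV21G controls made a depth-scaled ratio of 2226. This ratio rests on 2 reads in the lower group and leaves out counting error and library spread, so it is a description with no test. The standard error of the CAOV3 response of THRB was 0.29 on the log2 scale, because the common fit also takes in the scatter between 0 and 1 read in TOV21G. THRB-AS1, on the opposite strand, had a mean of 6.78 in CAOV3 controls.

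VDR (ENSG00000111424, chromosome 12, 47841537 to 47943048, minus strand), the vitamin D receptor gene, had like levels in both lines. Its counts in CAOV3 were 697, 666 and 625 in controls and 700.1, 655 and 710.0 in ascites. These groups overlapped, with a log2 difference of 0.06 (SE 0.06). In TOV21G VDR had 723, 699 and 767 in controls and 641, 679.6 and 607 in ascites. All 3 ascites libraries were below the controls, but the log2 difference of -0.18 (SE 0.06, 95% interval -0.32 to -0.05) did not pass the adjustment (limma, adjusted p 0.377). Between the untreated lines the log2 difference was 0.14 (SE 0.06), higher in TOV21G, and lay just outside the threshold (adjusted p 0.0505). On the recovered reads it passed with edgeR's quasi-likelihood test (adjusted p 0.0240) and not with DESeq2 (adjusted p 0.0806), and quantile normalisation gave 0.026 (limma, adjusted p 0.672).

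RXRA (ENSG00000186350, chromosome 9, 134317098 to 134440585, plus strand) encodes retinoid X receptor alpha, the common heterodimer partner. It had the highest counts per library of the 6 genes in every group, at 2101, 2054.5 and 1996 in CAOV3 controls and 1836, 1871 and 1973.5 in CAOV3 ascites. The groups were separate by a narrow gap, with a log2 difference of -0.12 (SE 0.05). In TOV21G the counts were 1925, 1687 and 1837.5 in controls and 1645, 1749 and 1612.5 in ascites. Here the groups overlapped, and the log2 difference of -0.12 (95% interval -0.23 to -0.01) did not pass (limma, adjusted p 0.503). Between the untreated lines RXRA was lower in TOV21G, at 88.6% of the CAOV3 mean (log2 difference -0.18, SE 0.05, adjusted p 0.00665).

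CYP24A1 (ENSG00000019186, chromosome 20, 54153449 to 54173973, minus strand) was higher in ascites-exposed CAOV3 cells. It had 17.0, 12.9 and 22.8 normalised counts in the CAOV3 controls, which were 15, 12 and 23 reads. In CAOV3 ascites it had 112, 106 and 112, from 102, 104 and 109 reads. Every ascites library was thus several times higher than every control, with means of 17.6 ± 4.9 and 109.8 ± 3.0 (SD, n = 3), a ratio of 6.25 and a log2 difference of 2.61 (SE 0.25) on the log2(value + 1) scale. TOV21G had no CYP24A1 read in any of its 6 libraries, so no response could be measured there. Against a floor of 3 reads over the TOV21G control group, the CYP24A1 reads of the CAOV3 controls made a depth-scaled ratio of 17.7. Against the same floor in the ascites groups the ratio was 126. These ratios leave out the counting error and library spread of the CAOV3 reads, so they are descriptions and not bounds. No annotated gene overlaps CYP24A1.

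**Figure D3:**
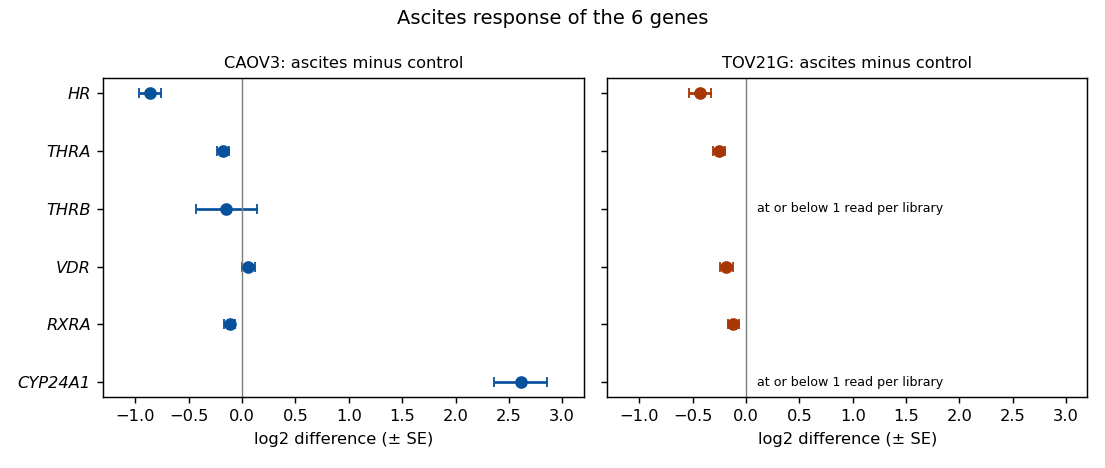
Log2 differences, ascites minus control, of the 6 genes in CAOV3 (left) and TOV21G (right), with error bars of 1 SE from the common fit of 12 libraries. HR lies at -0.87 and -0.43, CYP24A1 at 2.61 in CAOV3, and the receptors between -0.26 and 0.06; THRB and CYP24A1 have no point in TOV21G, where they had at most 1 read per library.

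Between the untreated lines, THRA and RXRA were called lower in TOV21G and VDR did not pass, so 2 of the 3 members tested were called. The share called among all tested genes was 82.2%, so a called difference between the lines was the usual outcome. This comparison shares its CAOV3 control libraries with the CAOV3 ascites comparison. For the difference between the responses of the lines, 0.545% of tested genes were called. The members' own values were HR -0.87 in CAOV3 and -0.43 in TOV21G, THRA -0.18 and -0.26, VDR 0.06 and -0.18, and RXRA -0.12 and -0.12 on the log2 scale, with no test.

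The machinery around the receptors was followed in 8 lists of 66 genes, of which 55 were tested. The lists were chosen with earlier results of these data in view, so the calls among them are descriptions. In CAOV3 1 of the 55 was called higher and none lower, 37 had log2 differences below 0, and their median was -0.08 against -0.002 over all tested genes. In TOV21G 1 was called lower and none higher, with a median of -0.005 against -0.02. These counts stand beside the 1.73% called over all tested genes in CAOV3 and 0.409% in TOV21G, and a single gene of 55 says nothing particular of the lists. At an unadjusted p under 0.05 there were 2280 tested genes in CAOV3 and 1615 in TOV21G.

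Other receptors and heterodimer partners came first. None of the 11 tested was called in either line, with medians of -0.08 in CAOV3 and 0.01 in TOV21G. The most abundant by the mean of the 12 libraries was PPARG, the fat cell receptor, which led the list in CAOV3 and not in TOV21G. It stood at 3229 ± 123 and 2997 ± 119 in CAOV3 control and ascites and 839 ± 52.6 and 846 ± 33.6 in TOV21G (SD, n = 3). No member of the corepressor complexes, 10 tested, was called either, with medians of -0.01 in CAOV3 and -0.06 in TOV21G. Of 8 coactivators none was called. In CAOV3 7 of the 8 had point estimates below 0, with a median of -0.11, against 3 of 8 and a median of 0.02 in TOV21G. The acetyltransferase EP300 had -0.14 (SE 0.14) and 0.18 (SE 0.14) in the 2 lines. The 3 KDM3 demethylases, which share the JmjC domain with HR, were not called, and KDM3B had -0.15 (SE 0.06) in CAOV3 and -0.001 in TOV21G.

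Genes of thyroid hormone transport, activation and binding had no called member among 6 tested. SLC7A5, a large neutral amino acid carrier that also takes thyroid hormone, went from 12902 ± 285 to 14534 ± 137 in CAOV3 (adjusted p 0.201) and from 13739 ± 831 to 12647 ± 991 in TOV21G (limma, adjusted p 0.556). Of 6 thyroid hormone responsive genes 1 was called higher in CAOV3 and none in TOV21G. The called gene was ANGPTL4, which encodes a lipoprotein lipase inhibitor and is also a classical PPAR target. ANGPTL4 had 847, 776 and 787 normalised counts in CAOV3 controls and 1160, 1113 and 1123 in ascites. All ascites libraries were above the controls, a rise of 0.50 on the log2 scale (SE 0.06) that was called (limma, adjusted p 0.000509). Since the list was chosen with earlier results of these data known, the p-values of ANGPTL4 are no independent support. In TOV21G ANGPTL4 had 1488 ± 87.8 and 1447 ± 89.6 (log2 -0.04, adjusted p 0.849), and its responses in the lines differed by -0.54, TOV21G minus CAOV3 (limma, adjusted p 0.0104). ATP2A2, the most abundant of the list, had 0.03 in CAOV3 and -0.04 in TOV21G.

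KLF9, the best known direct thyroid hormone target of the list, lies outside the naming rule and was chosen after its values were seen. It had 493, 479.7 and 515 normalised counts in CAOV3 controls and 414, 430 and 382 in ascites. In TOV21G the counts were 62.9, 57.7 and 64.6 in controls and 34.8, 54.0 and 42.1 in ascites. The ascites libraries lay below the controls in both lines, with log2 differences of -0.28 (SE 0.13) in CAOV3 and -0.51 (SE 0.13) in TOV21G, given with no test. KLF9 was not among the called genes of the list in either line. The list as a whole did not go with it in CAOV3, where 3 of 6 genes were below 0 and the median was -0.003. In TOV21G 4 of 6 were below 0, with a median of -0.04. In CAOV3 ME1 had 0.0008, CPT1A -0.03 and PCK1 -0.007, beside the values of ANGPTL4 and ATP2A2 given above.

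Of the genes of vitamin D synthesis, activation and uptake, 5 were tested. DHCR7, whose enzyme uses the vitamin D precursor for cholesterol synthesis, was called lower in TOV21G. Its counts there were 1593, 1380 and 1336 in controls and 1126, 1193 and 999.6 in ascites, a fall of 0.38 on the log2 scale (limma log2 difference -0.38, SE 0.07, adjusted p 0.0304). Every ascites library was below every control. The call held in 9 of 21 alternative settings: it was lost, among others, in TOV21G fitted alone and on leaving out any 1 library other than TOV21G control replicate 2 or ascites replicate 2, with adjusted p up to 0.206. In CAOV3 DHCR7 went from 4627 ± 7.05 to 3965 ± 47.4 (log2 -0.22, limma adjusted p 0.153), which passed in 3 of 21 alternatives, with edgeR (adjusted p 0.0242), DESeq2 (0.0141) and CAOV3 alone (8.39e-05). None of the 6 tested vitamin D responsive genes was called in either line. The most abundant, SPP1, which encodes osteopontin, differed by -0.02 in TOV21G and was at 4.97 ± 4.1 normalised counts in CAOV3 controls.

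**Figure D4:**
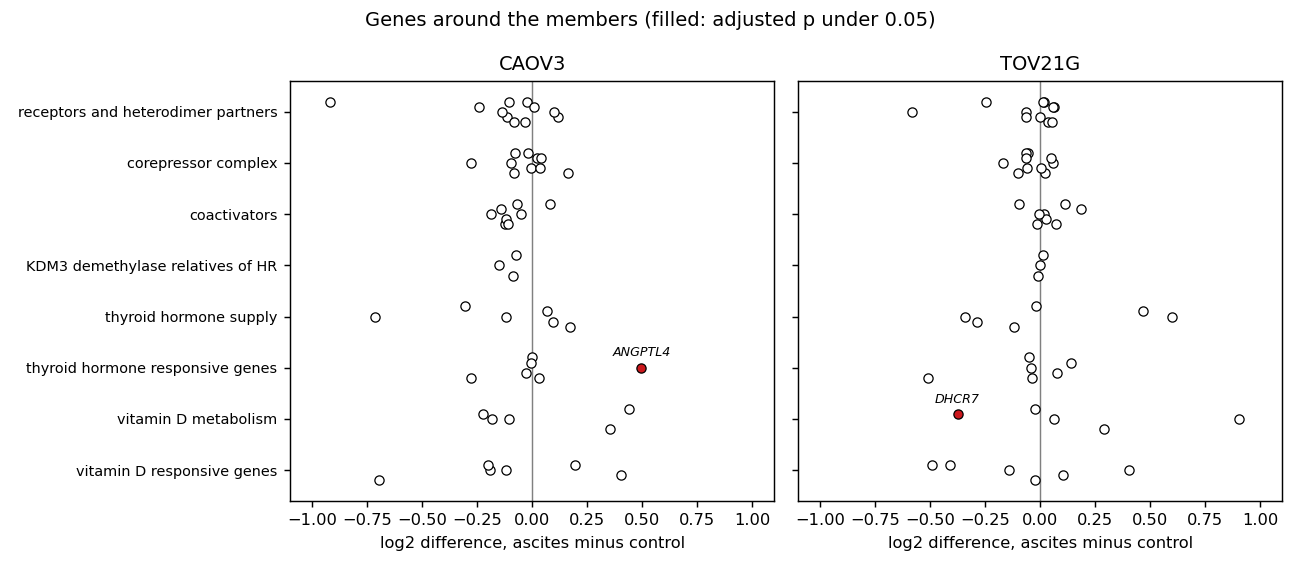
Log2 differences, ascites minus control, of the 55 tested genes of the 8 lists in CAOV3 (left) and TOV21G (right), with 1 point per gene and filled points for an adjusted p under 0.05. ANGPTL4 at 0.50 in CAOV3 and DHCR7 at -0.38 in TOV21G are the only filled points.

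The genes whose pattern was most like that of HR were ranked by Pearson's r over log2(value + 1) in the 12 libraries, as a description. The first 5 were SREBF1 (r 0.997), PAPSS2 (0.997), FADS1 (0.997), TRIQK (0.996) and ZCCHC24 (0.996), and 34 genes had r over 0.99. Most of the range behind these r values is the difference between the lines, which all these genes share with HR, so the likeness says little of the ascites response. SREBF1, the gene of a transcription factor of lipid synthesis, had 4772, 4648 and 4590.2 normalised counts in CAOV3 controls and 3711, 3663 and 3844 in ascites. In TOV21G SREBF1 had 1733, 1682 and 1659.9 in controls and 1363, 1482 and 1351 in ascites. The groups were separate in both lines, with log2 differences of -0.32 in CAOV3 and -0.27 in TOV21G. FADS1, a fatty acid desaturase gene, had -0.32 and -0.15. PAPSS2 had -0.20 and -0.08, TRIQK -0.25 and -0.09, and ZCCHC24 -0.32 and -0.20 in CAOV3 and TOV21G. Since these genes were picked by their likeness to HR, which was itself chosen in CAOV3, their differences are given with no test.

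**Figure D5:**
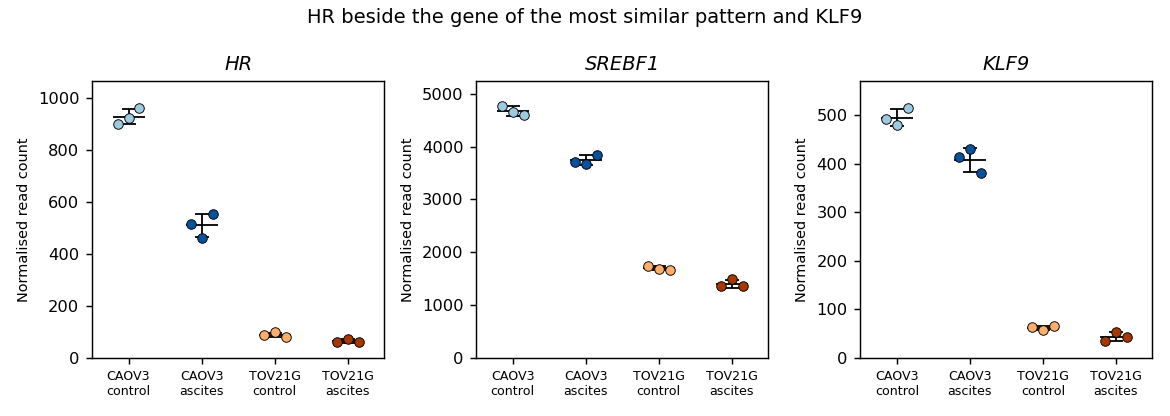
Normalised read counts (vertical axes, linear, from 0) of HR, of SREBF1, the gene with the highest r to HR, and of KLF9 in the 12 libraries, with the mean ± SD of 3 libraries per group as lines. In each panel and line the 3 ascites points lie below the 3 control points, and CAOV3 lies above TOV21G. KLF9 was chosen after its values were seen.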

How the data were processed

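For each of 12 libraries the authors deposited a normalised read count per gene, a signal that is never negative, for 19251 genes listed by Ensembl identifier. The submitters' processing notes name Trim Galore, cutadapt, STAR, HTSeq and DESeq, with no role or order. The genome build, annotation and strand setting are not given in the sources used here. Every value was a whole multiple of 1 step per library (within 0.01 read), which gave back whole read counts: 100% of values in each library, with depths of 26697609 to 34491304 reads. In 1 library, CAOV3 control replicate 3, the step was 0.99, so that wholeness says little there.

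The main test was limma 3.58.1 in R 4.3.3 (lmFit, eBayes with trend) on log2(value + 1), with a mean per group and all 12 libraries in 1 fit. Genes with a value of at least 10 in at least 3 libraries were tested (17616), and p-values were adjusted by Benjamini-Hochberg within each contrast and called under 0.05. Fold changes on this scale understate those of low genes. Alternatives were edgeR 4.0.16 and DESeq2 1.42.0 on the recovered reads, which called 511 and 507 genes in CAOV3, TMM and quantile scaling, pseudocounts of 0.5 and 5, no filter, each line alone, a replicate block and each library left out.

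Symbols came from a gene name table for 19087 identifiers and GENCODE release 29 for 136. Positions and exon lengths are those of GENCODE release 29 on GRCh38. The members and lists were chosen with earlier results of these data known. By rule, the text names all members, each called gene of a list or else its most abundant gene, the 5 genes most like HR, and the 3 nearest genes on each side of HR. Values of some marker and list genes are not reported here. Pairs of replicates differed by more than read sampling (chi-square per degree of freedom 1.81 to 22.6). The fit was tested on simulated data for the CAOV3 comparison over 17398 genes. It recovered 78% of changes of 0.5 on the log2 scale and 92% of changes of 1, with 31 false calls. Changes were planted only in well-read genes and only in CAOV3, so these rates do not cover low genes or the TOV21G comparison. The share of false calls among all calls is not given here. Depth-scaled ratios of reads leave out counting error and the spread between libraries.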

Additional observations from a re-analysis of the deposited data

Results flagged for a closer look

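The ascites responses of CYP24A1 differed between the lines by a log2 of -2.61, TOV21G minus CAOV3. All CAOV3 ascites libraries were above the controls, while TOV21G had no read in any of its 6 libraries, so the value is that of CAOV3 alone. The gene was flagged by the threshold of the interaction fit. That fit used the CAOV3 response that chose the members, so no test is given and no difference between the lines is read from it.

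The responses of ANGPTL4 differed between the lines by -0.54 (limma interaction, adjusted p 0.0104), with a rise in 3 of 3 CAOV3 ascites libraries and overlapping groups in TOV21G. The call was made in 19 of 20 alternatives, with adjusted p from 6.03e-06 to 0.131. ANGPTL4 comes from a list chosen with earlier results of these data known, so the call is a description.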

How the results depend on the processing

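In CAOV3 the differences of all 6 genes moved by less than 1 SD in all 21 alternatives, HR between -0.92 and -0.80 and CYP24A1 between 2.37 and 2.81. Counts of called genes moved more. In CAOV3, 305 genes became 511 with edgeR, 507 with DESeq2 and 1295 with the line alone. In TOV21G, 72 became 114, 150 and 22. For the difference of responses, 96 became 148 with edgeR, 212 with DESeq2 and 151 with TMM. The cause was not tested. Leaving out 1 library gave 162 (without CAOV3 ascites replicate 2) to 345 calls in CAOV3, 24 (without TOV21G control replicate 3) to 137 (without TOV21G ascites replicate 2) in TOV21G, and 35 (without CAOV3 ascites replicate 1) to 147 (without TOV21G ascites replicate 2) for the difference. The fits of fewer samples have less precision. Calls between the lines stayed between 13992 and 15203. With 1 library left out, the TOV21G difference of HR was -0.52 to -0.36 and that of THRA -0.32 to -0.22, past the threshold without ascites replicate 2 only. The VDR difference between lines was 0.15 with edgeR, 0.15 with TMM (adjusted p 0.0245) and 0.14 with a pseudocount of 0.5 (adjusted p 0.0498), all past the threshold, 0.14 with DESeq2 (adjusted p 0.0806) and 0.026 with quantile normalisation (adjusted p 0.672), neither past it, and 0.10 to 0.18 with 1 library left out. A replicate block within lines gave 116, 13 and 9 calls for CAOV3, TOV21G and the difference. Libraries that share a number did not deviate together (r -0.07, 0.06 and 0.01 in CAOV3, -0.16, -0.42 and 0.07 in TOV21G). Some of unlike number did in TOV21G, control 1 with ascites 2 (r 0.46) and control 2 with ascites 3 (r 0.32). Deviations were taken from means of 3 libraries, so these r values constrain each other. They do not settle whether libraries of the same number were paired. Depth limits THRB and CYP24A1 in TOV21G, where at most 1 read per library was seen and a response was not detectable.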

Other observations

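Among the list genes, several had very different levels in the untreated lines. They were chosen after their values were seen and are given with no test. RARB, a retinoic acid receptor gene, had 364 ± 22.5 normalised counts in CAOV3 controls (SD, n = 3) and was at 0 in all 6 TOV21G libraries. CRYM, whose product binds thyroid hormone in the cytosol, had 47.7 ± 5.3 in CAOV3 and 1942 ± 84.4 in TOV21G controls. CYP27B1, which makes active vitamin D, was higher in TOV21G, at 96.1 ± 28.2 against 34.6 ± 4.4. Over the 55 tested list genes, 22 were called higher and 23 lower in TOV21G controls (limma), near the 82.2% called over all tested genes.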
